A study of Mus musculus with 36 samples.

Results

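Histone genes were taken as every symbol of the count table that names a replication-dependent histone gene (Hist1h, Hist2h, Hist3h and Hist4h genes, called clustered here) or a histone variant (symbols starting H1f, H2af, H3f or H2az). The table held 91 such symbols among 51734, and 82 of them had a count in at least 1 library, of 37417 symbols with a count. Of these 82, 63 were clustered and 19 were variant genes. The other 9 were listed at 0 in every library, 7 of them clustered (Hist2h2aa1, Hist2h2aa2, Hist2h3c1, Hist2h3b, Hist2h2bb, Hist1h2ao and Hist1h2br) and 2 of them variants (H2afb1 and H2afb2). The newer names of clustered genes matched no symbol beyond these.

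The cells were the mouse embryonic stem cell (ESC) line E14 and its derivatives after retinoic acid, labelled neural precursor cells (NPC), and the study asked what the methyltransferase activity of MLL3 and MLL4, which methylate histone H3 at enhancers, contributes during this differentiation. Each of 6 groups had 3 libraries: wild type (WT), MLL3/4 dCD, in which both enzymes are catalytically dead, and MLL2dTAG, in which MLL2 carries a degron tag that the compound dTAG-13 directs to degradation, each as ESC and as NPC. The labels give dTAG-13 for all 18 libraries, WT and ESC included, at 2 µM from the start of differentiation to harvest on day 4 for NPC. For ESC they state neither its dose nor its duration, so how far the ESC groups share the treatment of the NPC groups is not known here. The labels do not say whether a line was a single clone or whether replicates were separate cultures, so p-values measure the spread between these libraries, which may be technical. Neither edit is checked by an RNA level.

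Nucleosomes are built from the core histones H2A, H2B, H3 and H4, with linker histone H1 between them. Replication-dependent histone genes lie in clusters, have no introns as a rule, and are transcribed in S phase, when new DNA is packaged. Their mRNAs end just after a stem-loop that the protein SLBP binds, and carry no poly(A) tail. Variant genes are expressed through the cell cycle, usually have introns, and make ordinary tailed mRNAs, and their proteins replace the canonical histones at particular places, such as H3.3 at active genes and H2A.Z at promoters. The libraries were prepared with a kit that selects tailed RNA, so a clustered gene is read here through whatever transcripts of it carry a tail or escape that selection, and its level here is not the level of its stem-loop mRNA.

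The stem-loop was searched for in the annotated transcripts (GENCODE vM21, GRCm38) by its 16-base consensus, with 6 positions left free, on the transcript strand, a pattern that was widened after the first matches had been seen. It was found in 46 of 70 clustered genes and in 1 of 21 variants, H2afx, against 0.363% of 55341 annotated genes. The sequences below are those of the 5 clustered genes among the 8 of highest level that hold a match and of the only variant with a match. The last is Hist1h2bp, of highest level among clustered genes whose matching transcript ends fewer than 100 bases after the stem-loop. Capitals mark the matched letters.
Hist1h1c: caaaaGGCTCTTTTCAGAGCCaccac
Hist3h2ba: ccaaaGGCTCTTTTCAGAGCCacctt
Hist3h2a: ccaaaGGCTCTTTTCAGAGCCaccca
Hist1h4i: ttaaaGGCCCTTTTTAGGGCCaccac
Hist1h2be: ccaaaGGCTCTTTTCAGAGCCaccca
H2afx: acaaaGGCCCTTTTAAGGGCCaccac
Hist1h2bp: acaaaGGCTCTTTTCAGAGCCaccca
Of the 46 clustered genes with the match, 23 had at least 100 annotated bases after it in the matching transcript and 23 had fewer. This division was chosen after the data had been seen. In the first 23 the median of the mean levels was 0.319 CPM (counts relative to the scaled library total, in the usual unit), and in the other 23 it was 0.106 CPM. Per kilobase of exon the medians were 0.203 and 0.192 CPM, so the gap between the medians was not seen per length. The highest values per kilobase still lay in the first 23, up to 6.78 CPM in Hist1h1c. In the other 23 the highest was 0.882 CPM, in Hist1h2bb. The exon length includes the bases after the stem-loop, by which the genes were divided. The share of a gene's 50-base windows found in no other gene's transcripts also differed, at a median of 75.4% and 40.6%. The matching transcript ran 840 bases past the stem-loop in Hist1h1c, 169 in Hist3h2ba, 1643 in Hist3h2a, 330 in Hist1h4i, 1861 in Hist1h2be and 822 in H2afx, and 38 in Hist1h2bp. Hist1h2bp has 2 annotated transcripts, and the 38 bases describe only the one with the match. The 3 others among the 8 clustered genes of highest level, Hist1h2bc, Hist2h2be and Hist1h1a, held no match, which says only that these letters are not in their annotated transcripts.

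**Figure D1:**
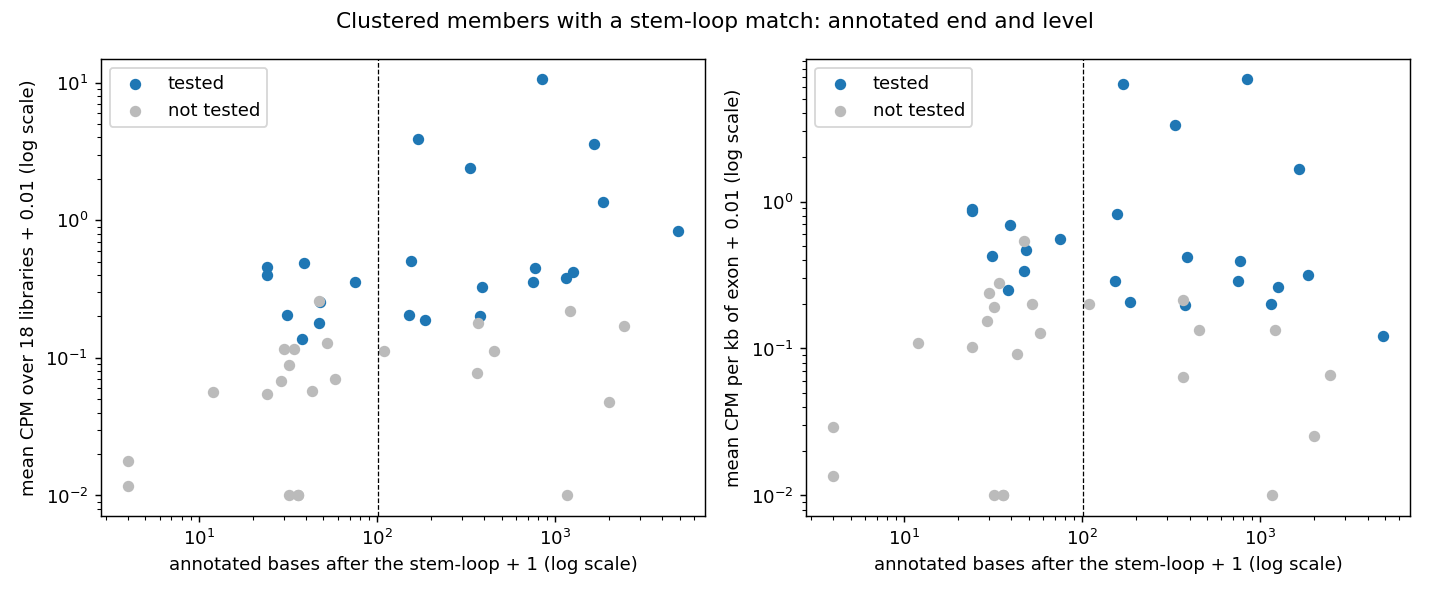
Each point is 1 of the 46 clustered genes with a stem-loop match, placed by the annotated bases after it (x axis, plus 1, log scale) and by its mean CPM (left) or mean CPM per kilobase of exon (right), both plus 0.01 on a log scale; the dashed line is at 100 bases, and blue points were tested. The points of highest CPM and of highest CPM per kilobase lie to the right of the line. The medians of the sides are 0.203 and 0.192 CPM per kilobase.

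Library totals spanned 19.4 M to 46 M counts (M for mega), and 3 counts, the floor used for a count of 0, are worth 0.0662 to 0.16 CPM. Counts from 1 to 10 were even in 60.8% to 66.5% of cases, against 48.9% to 50.4% of counts over 1000, so counting intervals at low counts may be too narrow, and they cover counting error only. WT ESC replicate 2 differed from its group by a chi-square of 10.5 and 8.38 per degree of freedom, against 2.19 to 4.43 for all other replicate pairs. Its H3f3b, H2afz and H2afx levels, 313, 158 and 123 CPM, were the lowest of its group. Both ESC comparisons, the stage comparison and both interactions use this library. The stage labels were checked against markers: Pou5f1, a pluripotency factor, fell from 486 to 612 CPM in the WT ESC libraries to 0.855 to 1.28 CPM in WT NPC, but was at 24.5 to 28.3 CPM in MLL2dTAG NPC, where all 8 pluripotency markers were called higher than in WT NPC. Pax6, a neural progenitor factor, was at 38.1 to 40.2 CPM in WT NPC, and 7 of 8 markers of neural precursor cells were called higher in WT NPC than in WT ESC and 0 lower, with a median log2 fold change of 2.54. The one not called was Sox1, at 2.82 to 3.26 CPM in WT NPC and 2.56 to 3.47 CPM in WT ESC, and Hes5, though called higher, stayed under 1 CPM in every library. All 8 endoderm markers were called higher too, with a median of 2.93. Trophoblast, mesenchymal and neuron markers were each 5 higher and 3 lower, with medians of 2.68, 2.47 and 0.56 in that order. Germ cell markers were 1 higher and 6 lower. In bulk libraries fewer cells of a type and less RNA per cell cannot be told apart, and the part of such cells in the results below was not tested.

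The 2 NPC libraries named here stood apart in a way that touches these genes. Summed over 22 RNAs that carry no tail other than histone mRNAs, such as the small nuclear RNA Rn7sk, NPC WT replicate 3 held 28 CPM and NPC MLL2dTAG replicate 2 held 40.4 CPM, against 3.36 to 6.97 CPM in the other 16 libraries. The 62 clustered genes outside the 8 of highest level summed to 9.16 CPM in that WT library, against 5.1 and 5.17 CPM in the other WT NPC libraries. They summed to 11.4 CPM in that MLL2dTAG library, against 8.1 and 7.7 CPM in the others of its group. The 8 clustered genes of highest level showed no such rise in the WT library, where they summed to 27.3 CPM, the lowest value of its group, while in the MLL2dTAG library they summed to 46.2 CPM, the highest of its group, against 41.7 and 44.7 CPM. Results that use either library are given with and without both where that changes a call.

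**Figure D2:**
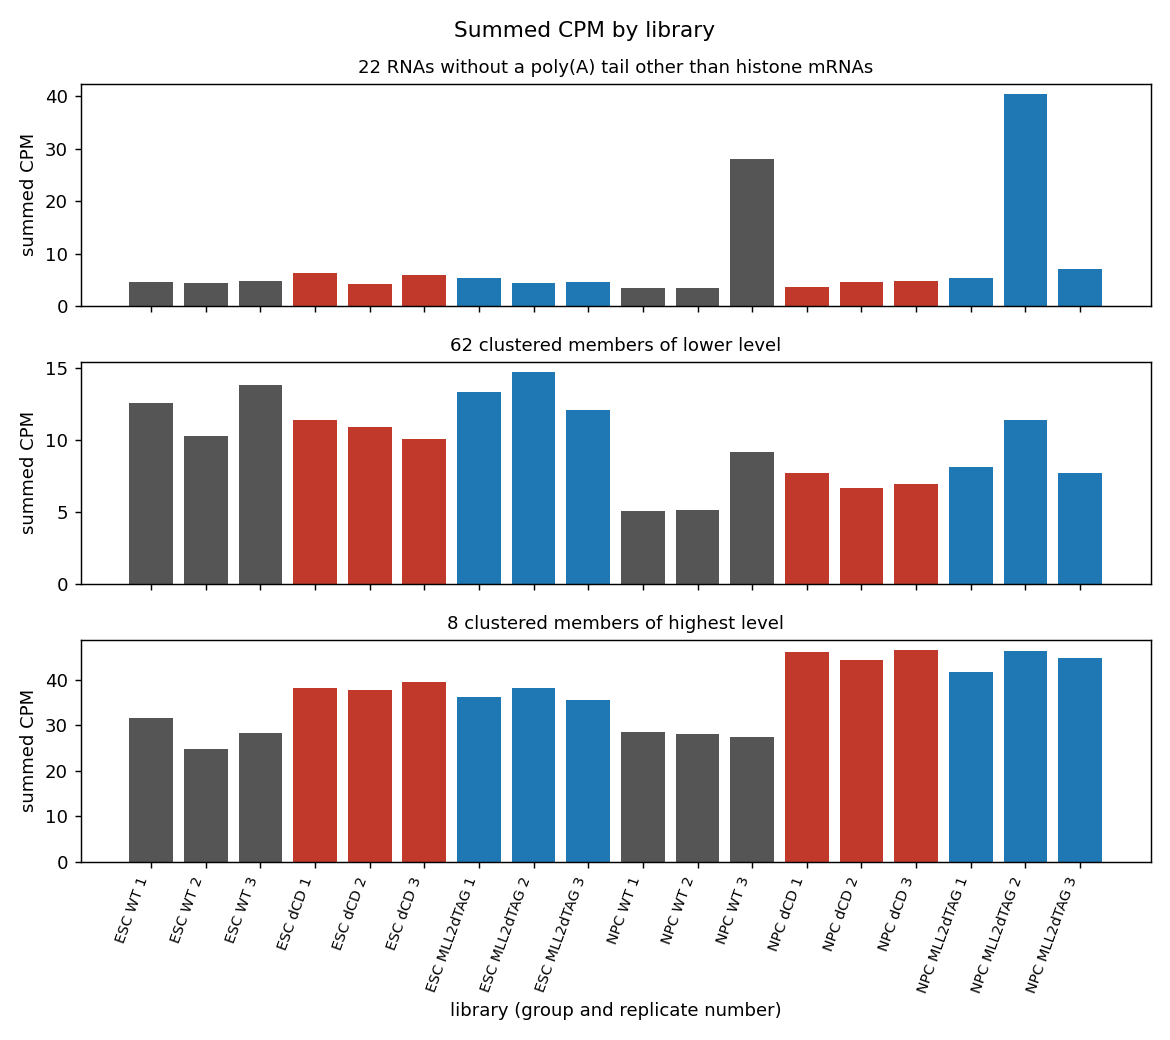
Bars give the summed CPM in each of the 18 libraries (grey WT, red dCD, blue MLL2dTAG) for 22 RNAs without a tail (top), for the 62 clustered histone genes of lower level (middle) and for the 8 of highest level (bottom). In the top panel NPC WT replicate 3 and NPC MLL2dTAG replicate 2 stand at 28 and 40.4 CPM and all other libraries are under 7 CPM.

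The filter on low counts passed 20511 genes, among them 28 clustered and 12 variant genes. A further 35 clustered and 7 variant genes had a count but were not tested, and 16 clustered genes had fewer than 10 counts over all libraries together, those at 0 included. The 12 tested variants were 10 protein-coding genes, the antisense RNA H3f3aos and the pseudogene H2afy3. Tested clustered genes had a median of 69.2% such unique 50-base windows, those not tested 30.45%, and those at 0 10.6%, and how the authors' counting treated reads shared by near-identical copies is not stated. Among linker histone genes known mainly from germ cells, H1foo, that of the oocyte, had 12 counts in all and H1fnt, that of the spermatid, had 18, and neither was tested. Hist1h1t, the testis linker histone gene of the clusters, had 95 counts in 13 libraries and was tested.

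Clustered genes gave little of the histone signal. All clustered genes together summed to 40.4 ± 4.7 CPM in WT ESC and 34.5 ± 1.77 CPM in WT NPC (mean ± SD, n = 3, as throughout), and the variants to 1190 ± 85.9 and 1760 ± 7.33 CPM. In ESC the clustered sum stood at 49.2 ± 0.625 CPM for dCD and 50 ± 2.58 CPM for MLL2dTAG, and in NPC at 52.7 ± 1.55 and 53.3 ± 3.99 CPM. No library of either edited line fell within the range of the WT libraries of its stage, 35.1 to 44.1 CPM in ESC and 33.3 to 36.5 CPM in NPC. In ESC the gain lay mostly in the 8 clustered genes of highest level. They summed to 28.2 ± 3.37 CPM in WT, 38.4 ± 0.911 CPM in dCD and 36.6 ± 1.34 CPM in MLL2dTAG. Among them Hist1h2bc alone went from 8.14 CPM in WT to 15 CPM in dCD. The other clustered genes overlapped WT in ESC, at 12.2 ± 1.77, 10.8 ± 0.633 and 13.4 ± 1.27 CPM in that order. In NPC these others overlapped WT too, at 6.47 ± 2.33, 7.11 ± 0.528 and 9.07 ± 2.04 CPM. That overlap came only from NPC WT replicate 3, 1 of the 2 libraries that stood apart, at 9.16 CPM. The other WT NPC libraries, the lowest at 5.1 CPM, lay below all libraries of both lines. Those ran from 6.68 to 7.7 CPM in dCD and from 7.7 to 11.4 CPM in MLL2dTAG, the 11.4 CPM in the other library that stood apart. The 8 clustered genes of highest level carried 69.8% of the clustered sum in WT ESC, 81.4% in WT NPC and 86.5% in dCD NPC. Of the variants, the sum in NPC was lower in both lines than in WT, at 1500 ± 36.8 CPM in dCD and 1610 ± 19.4 CPM in MLL2dTAG.

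By type of histone, the clustered H2B genes summed to 17.9 ± 1.72 CPM in WT ESC and the clustered H1 genes to 14.2 ± 2.94 CPM, while the H2A, H3 and H4 genes summed to 2.48 ± 0.364, 1.79 ± 0.483 and 4.05 ± 0.46 CPM. Each nucleosome takes equal numbers of the 4 core histones, and the sums were far from equal. They are RNA sums that leave out the variant genes and follow selection for tails. How reads shared by near-identical copies were counted is not stated, so the sums do not measure histone supply. The H2A sum ran from 1.82 ± 0.327 CPM in MLL2dTAG ESC to 8.24 ± 0.632 CPM in MLL2dTAG NPC, and most of it was the single gene Hist3h2a.

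Per kilobase of exon, H3f3b was the highest of all histone genes at 157 CPM, followed by H2afz at 98.8, H2afx at 88.8, H1f0 at 85.3 and H2afv at 72.8 CPM per kilobase, as means over the 18 libraries. The highest clustered gene, Hist1h2bc, stood at 8.92 CPM per kilobase, between the variants H1fx at 12 and H2afj at 7.97. Hist1h1c at 6.78, Hist3h2ba at 6.33 and Hist1h4i at 3.31 came next among clustered genes.

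Differentiation of WT cells moved the classes in different ways. Across all genes tested, 79.5% were called between WT NPC and WT ESC at an adjusted p under 0.05, 39.1% higher and 40.4% lower. Of 28 clustered genes, 5 were called higher and 13 lower, 18 in all, a share below that of all genes, and the median log2 fold change was −1.05 against −0.04 for all genes. Without the 2 NPC libraries that stood apart, 5 were higher and 17 lower of 30 tested, against 75.9% of all genes called in either direction. Of the 8 clustered genes of highest level, 4 were higher and 3 lower, with a median of 0.19. They summed to 28.2 ± 3.37 CPM in WT ESC and 28 ± 0.623 CPM in WT NPC. These 8 were ranked over all 18 libraries, NPC and edited lines included, so their choice is not independent of the stage difference. Hist1h2be, among the 8, was at 0.365 to 0.748 CPM in WT ESC, while Hist1h1d, outside them, was at 0.597 to 2.13 CPM there. The 20 other tested clustered genes had a median of −1.14. Of 12 variants, 7 were higher and 4 lower, with a median of 0.30. In the S phase list, genes that start and carry out DNA replication, 25 of 31 were lower and 2 higher in WT NPC.

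Among the linker histones, H1f0 encodes H1.0, the linker histone linked with differentiated and resting cells. It stood at 72.0, 62.1 and 77.2 CPM in WT ESC and at 333, 337 and 345 CPM in WT NPC. All NPC values lay above all ESC values, and the log2 fold change was 2.27 (SE 0.046, edgeR adjusted p = 2e-31). H1fx, another replication-independent linker histone gene, went from 9.64, 10.1 and 11.4 CPM to 26.4, 29.6 and 27.9 CPM, a log2 fold change of 1.42 (SE 0.093). Of the clustered linker histone genes tested, Hist1h1a, Hist1h1b, Hist1h1c, Hist1h1d and Hist1h1t were called lower and Hist1h1e was not called. Hist1h1a fell by 1.59 on the log2 scale (SE 0.43) and Hist1h1c fell by 0.36 (SE 0.12), the latter with an adjusted p of 0.0063 in edgeR that rose to 0.054 without WT ESC replicate 1.

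Of the H2A variants, H2afy2 encodes macroH2A2, a variant with a large extra domain that is found in silent chromatin. Its level was 31.8, 25.7 and 28 CPM in WT ESC and 151, 145 and 142 CPM in WT NPC, a log2 fold change of 2.37 (SE 0.052, edgeR adjusted p = 1.6e-30). Its exons overlap those of Aifm2 on the opposite strand, so part of its counts is uncertain. H2afy, which encodes macroH2A1, differed by −0.02 (SE 0.039). H2afj, which encodes H2A.J, went from 27.3, 23.0 and 27.1 CPM to 5.0, 5.11 and 6.26 CPM, and fell by 2.23 on the log2 scale (SE 0.11, edgeR adjusted p = 5.3e-20). It was the only protein-coding variant that fell by more than 2-fold.

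H2afx encodes H2A.X, whose phosphorylated form marks DNA breaks, and it is the variant with a stem-loop match above. It fell by 0.43 on the log2 scale (SE 0.05), from 146, 123 and 149 CPM to 102, 106 and 100 CPM. H2afv, which encodes H2A.Z.2, rose by 0.44 (SE 0.047) while H2afz, which encodes H2A.Z.1, differed by −0.18 (SE 0.043), a call that ended without the filter on low counts (edgeR adjusted p = 0.14). H3f3b, of the pair of genes that encode H3.3, rose by 0.65 (SE 0.04), and H3f3a by 0.16 (SE 0.051). The smaller H3f3a difference dropped to 0.07 under upper-quartile scaling (edgeR adjusted p = 0.19). H3f3a shares bases with the antisense RNA H3f3aos, which was 3.35 higher on the log2 scale (SE 0.28) in WT NPC at a much lower level, 3.04 to 3.59 CPM.

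Clustered genes called higher in WT NPC were Hist3h2ba, Hist3h2a, Hist1h2be, Hist2h2be and Hist1h4j. Hist3h2ba, an H2B gene on chromosome 11, rose by 1.63 on the log2 scale (SE 0.17, edgeR adjusted p = 9.2e-11), from 2.34, 1.79 and 2.38 CPM to 7.03, 6.82 and 6.14 CPM. Hist3h2a, an H2A gene of the same small cluster, rose by 0.65 (SE 0.17). Hist1h2bc, an H2B gene, fell by 1.14 (SE 0.12), from 9.32, 7.63 and 7.48 CPM to 4.15, 3.33 and 3.52 CPM. Of the 20 tested clustered genes of lower level, 10 were called lower and 1 higher, at a median log2 fold change of −1.14. The calls of Hist1h1b, Hist1h2bm and Hist2h4 each ended when any 1 of several libraries was left out, and that of Hist2h2be without WT NPC replicate 2. Hist2h3c2, an H3 gene, had 24 counts over the WT ESC libraries and 2 over WT NPC, a ratio of 0.0622 with a 95% counting interval of 0.00713 to 0.251.

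The comparisons of the edited lines with WT share their WT libraries within a stage, so they are given side by side and not as independent results. In ESC, 48.3% of all genes were called between dCD and WT, 25.7% higher and 22.6% lower, and 56.9% between MLL2dTAG and WT, 28.7% higher and 28.2% lower. Of 28 clustered genes, 4 were higher and 0 lower in dCD by edgeR (0 lower by DESeq2 too, and 1, Hist3h2ba, at an unadjusted p under 0.05), and 5 were higher and 2 lower in MLL2dTAG. Both shares lie below the background, and they differed with level. Of the 8 clustered genes of highest level, 3 were called in dCD and 6 in MLL2dTAG, and of the 20 others 1 in each. Of 12 variants, 5 were higher and 4 lower in dCD, and 4 higher and 4 lower in MLL2dTAG. Without dCD ESC replicate 1, 7 clustered genes were called between dCD and WT, 4 higher and 3 lower, against 43.3% of all genes. Calls of at least 2-fold were made for 3 clustered genes in dCD ESC (9.51% of all genes), 3 in MLL2dTAG ESC (16.8%), 3 in dCD NPC (11.9%), 5 in MLL2dTAG NPC (19.6%) and 14 between WT NPC and WT ESC (43.7%).

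In NPC, 53.5% of all genes were called between dCD and WT, 26.7% higher and 26.8% lower, and 61.7% between MLL2dTAG and WT, 33.3% higher and 28.4% lower. Of 28 clustered genes, 6 were higher in dCD and 7 in MLL2dTAG. By edgeR and by DESeq2 0 were called lower in either, and 1 in each was lower at an unadjusted p under 0.05 (Hist1h1e in dCD and Hist2h2be in MLL2dTAG). Named after its value was seen, Hist1h1e is a linker histone gene whose exons overlap Hist1h2be. Over the 28, the median log2 fold changes were 0.33 and 0.49 against −0.02 and 0.03 for all genes. Both called shares again lie below the background. Of the 8 clustered genes of highest level, 4 were called in each line, and of the 20 others 2 in dCD and 3 in MLL2dTAG. Cell type markers differed in these NPC too. Of 8 markers of endoderm, 0 were higher and 6 lower in dCD NPC (edgeR, median −0.69), and 7 were higher and 1 lower in MLL2dTAG NPC (median 1.55). Markers of neural precursor cells and of neurons were each 5 higher and 0 lower in dCD NPC, and 3 higher with 1 and 2 lower in MLL2dTAG NPC. Pluripotency markers were 3 higher and 0 lower in dCD NPC, beside the 8 higher in MLL2dTAG NPC. Mesenchymal markers were 7 higher and 0 lower in dCD NPC and 5 higher and 3 lower in MLL2dTAG NPC. The part of these cell types in the histone results was not tested. Of 12 variants, 1 was higher and 7 lower in dCD, and 2 higher and 5 lower in MLL2dTAG, with medians of −0.23 and −0.12.

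Hist1h2bc was higher in both lines at both stages. In ESC it stood at 15.2, 15.1 and 14.8 CPM in dCD and 15.4, 14.7 and 14.2 CPM in MLL2dTAG, above the WT values given earlier. In NPC it stood at 11.1, 11.5 and 11.7 CPM in dCD and 8.57, 10 and 7.96 CPM in MLL2dTAG. No edited library overlapped the WT range of its stage. The log2 fold change was 0.90 (SE 0.10) in dCD ESC, 0.87 (SE 0.099) in MLL2dTAG ESC, 1.65 (SE 0.11) in dCD NPC and 1.28 (SE 0.11) in MLL2dTAG NPC, with an edgeR adjusted p of at most 2.6e-09 in each.

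Hist1h4i, an H4 gene, was also called higher in each of the 4 comparisons. WT libraries held 2.02, 1.19 and 1.56 CPM in ESC and 1.52, 1.25 and 1.68 CPM in NPC. In dCD it was at 4.01, 3.64 and 3.21 CPM in ESC and 2.55, 2.40 and 2.49 CPM in NPC. In MLL2dTAG it was at 2.97, 2.92 and 2.40 CPM in ESC and 1.96, 2.83 and 2.71 CPM in NPC. The ranges did not overlap with WT, and the log2 fold changes were 1.22 (SE 0.21), 0.74 (SE 0.20), 0.82 (SE 0.21) and 0.77 (SE 0.20) in that order, with an edgeR adjusted p of at most 0.0019.

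Hist1h1c encodes H1.2, a main somatic linker histone, and had the highest mean CPM of the clustered genes over the 18 libraries, though not in the ESC of the edited lines, where Hist1h2bc was higher. In WT it was at 10.3, 8.03 and 8.63 CPM in ESC and 7.12, 7.24 and 6.42 CPM in NPC. In dCD NPC it was at 12.9, 11.8 and 14.8 CPM and in MLL2dTAG NPC at 11.8, 14 and 14.2 CPM, all above WT NPC. The log2 fold changes in NPC were 0.92 (SE 0.11) and 0.95 (SE 0.11), with an edgeR adjusted p of 4e-09 and 1.1e-09. In ESC, dCD libraries at 8.67, 9.65 and 10.9 CPM overlapped WT and differed by 0.14 (SE 0.12, adjusted p = 0.35 in edgeR), and MLL2dTAG libraries at 10.7, 12.5 and 10.5 CPM differed by 0.34 (SE 0.11), a call that ended without WT replicate 2 or without MLL2dTAG replicate 2.

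Hist1h2be, an H2B gene, was low in WT ESC alone. It stood at 0.373, 0.365 and 0.748 CPM there, at 1.54, 1.49 and 1.30 CPM in dCD ESC and at 1.5, 1.4 and 1.91 CPM in MLL2dTAG ESC. The log2 fold changes in ESC were 1.5 (SE 0.31) and 1.66 (SE 0.30), with an edgeR adjusted p of 0.00011 and 9.7e-06. In NPC the WT libraries held 1.36, 1.57 and 1.31 CPM, and the lines differed from WT by 0.18 (SE 0.24) and 0.13 (SE 0.24). Its annotated exons overlap those of the linker histone gene Hist1h1e on the same strand, so its counts are uncertain. Hist1h4j, an H4 gene at a mean of 0.319 CPM, was 2.19 higher in each line in ESC (SE 0.69 in dCD and 0.68 in MLL2dTAG), and the dCD call ended without WT replicate 3 or without dCD replicate 2.

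The Hist3 cluster on chromosome 11 differed between its genes and between the lines. For 2 of them the bases just before the annotated starts are shown (RefSeq, GRCm38.p6, plus strand), Hist3h2a at chr11:58954435-58954684 and Hist3h2ba at chr11:58948661-58948910. The pseudogene Hist3h2bb-ps lies between these genes on the minus strand and ends at 58954512, so the first bases shown for Hist3h2a lie within it. Capitals mark 3 motifs on either strand: the CCAAT box, the TATA box letters TATAAA, and the octamer ATTTGCAT.
Hist3h2a: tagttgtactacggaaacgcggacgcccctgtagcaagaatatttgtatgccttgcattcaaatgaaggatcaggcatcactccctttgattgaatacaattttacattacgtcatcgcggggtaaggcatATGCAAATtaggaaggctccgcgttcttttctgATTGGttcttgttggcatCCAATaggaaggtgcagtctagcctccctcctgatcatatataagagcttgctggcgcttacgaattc
Hist3h2ba: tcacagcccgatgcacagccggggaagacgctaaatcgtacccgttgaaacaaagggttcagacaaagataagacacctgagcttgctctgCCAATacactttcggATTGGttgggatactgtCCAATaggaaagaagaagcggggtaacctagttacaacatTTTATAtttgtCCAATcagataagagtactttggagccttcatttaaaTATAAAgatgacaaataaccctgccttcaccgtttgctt
Over the 300-base RefSeq windows, which run a little past the start, CCAAT was in 85.5% of 62 clustered promoters against 37.4% of 32851 promoters in all. TATAAA was in 56.5% against 13.6%, and the octamer in 22.6% against 1.74%. Of 14 variant promoters 64.3% held CCAAT, 7.14% TATAAA and 7.14% the octamer. The 62 clustered windows include pairs of neighbouring genes read in opposite directions, whose windows overlap, and more than 1 window of Hist1h2be. All 17 clustered H2A, 17 H2B, 10 H3 and 6 H1 promoters held CCAAT, and 3 of 12 clustered H4 promoters did. A match is a description of letters, not a site shown to be bound.

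Hist3h2a was at 2.13, 1.59 and 1.97 CPM in WT ESC, 2.35, 1.99 and 2.24 CPM in dCD ESC and 1.21, 1.30 and 1.10 CPM in MLL2dTAG ESC. In NPC it was at 3.17, 2.74 and 2.90 CPM in WT, 5.89, 5.49 and 4.72 CPM in dCD and 8.39, 7.33 and 7.33 CPM in MLL2dTAG. MLL2dTAG libraries thus lay below WT in ESC and above it in NPC. The log2 fold change in MLL2dTAG was −0.64 (SE 0.20, edgeR adjusted p = 0.0054) in ESC and 1.39 (SE 0.13, edgeR adjusted p = 3.5e-11) in NPC, and in dCD 0.23 (SE 0.19) and 0.87 (SE 0.14, edgeR adjusted p = 1.9e-06). Hist3h2a shares exon bases with Trim17 on the same strand, so its counts are uncertain.

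Hist3h2ba was at 1.88, 1.41 and 1.34 CPM in dCD ESC and 0.953, 0.435 and 0.940 CPM in MLL2dTAG ESC, and at 6.75, 6.02 and 5.16 CPM and 5.58, 6.40 and 6.57 CPM in the NPC of those lines. Against WT it fell by 1.47 on the log2 scale in MLL2dTAG ESC (SE 0.24, edgeR adjusted p = 1.9e-06) and differed by −0.49 (SE 0.22, adjusted p = 0.066 in edgeR) in dCD ESC. In NPC it differed by −0.16 (SE 0.14) in dCD and −0.10 (SE 0.14) in MLL2dTAG, and neither was called. Hist2h2be, an H2B gene, ran from 2.31 to 4.03 CPM over the ESC libraries and 3.16 to 5.52 CPM over the NPC libraries and was called in no line. Hist1h1a ran from 0.962 to 2.11 CPM in ESC and 0.178 to 0.994 CPM in NPC and was called in no line either, and its highest NPC values were in the 2 libraries that stood apart, at 0.95 and 0.994 CPM.

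Among clustered genes under 1 CPM, Hist1h2bg and Hist2h3c2 were called higher in dCD NPC, and Hist1h2bj, Hist1h4d and Hist1h3c in MLL2dTAG NPC. Hist2h3c2 had 29 counts over dCD NPC and 2 over WT NPC, a ratio of 14.8 with a 95% counting interval of 3.74 to 128. Hist1h3c, an H3 gene, was 2.07 higher on the log2 scale in MLL2dTAG NPC (SE 0.55, edgeR adjusted p = 0.0015). Hist1h4d at 1.74 (SE 0.51) and Hist1h2bj at 1.37 (SE 0.60) were no longer called without the 2 libraries that stood apart, at 1.36 (edgeR adjusted p = 0.077) and 1.12 (edgeR adjusted p = 0.25), and the Hist1h2bj call ended under 10 of 14 alternatives.

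**Figure D3:**
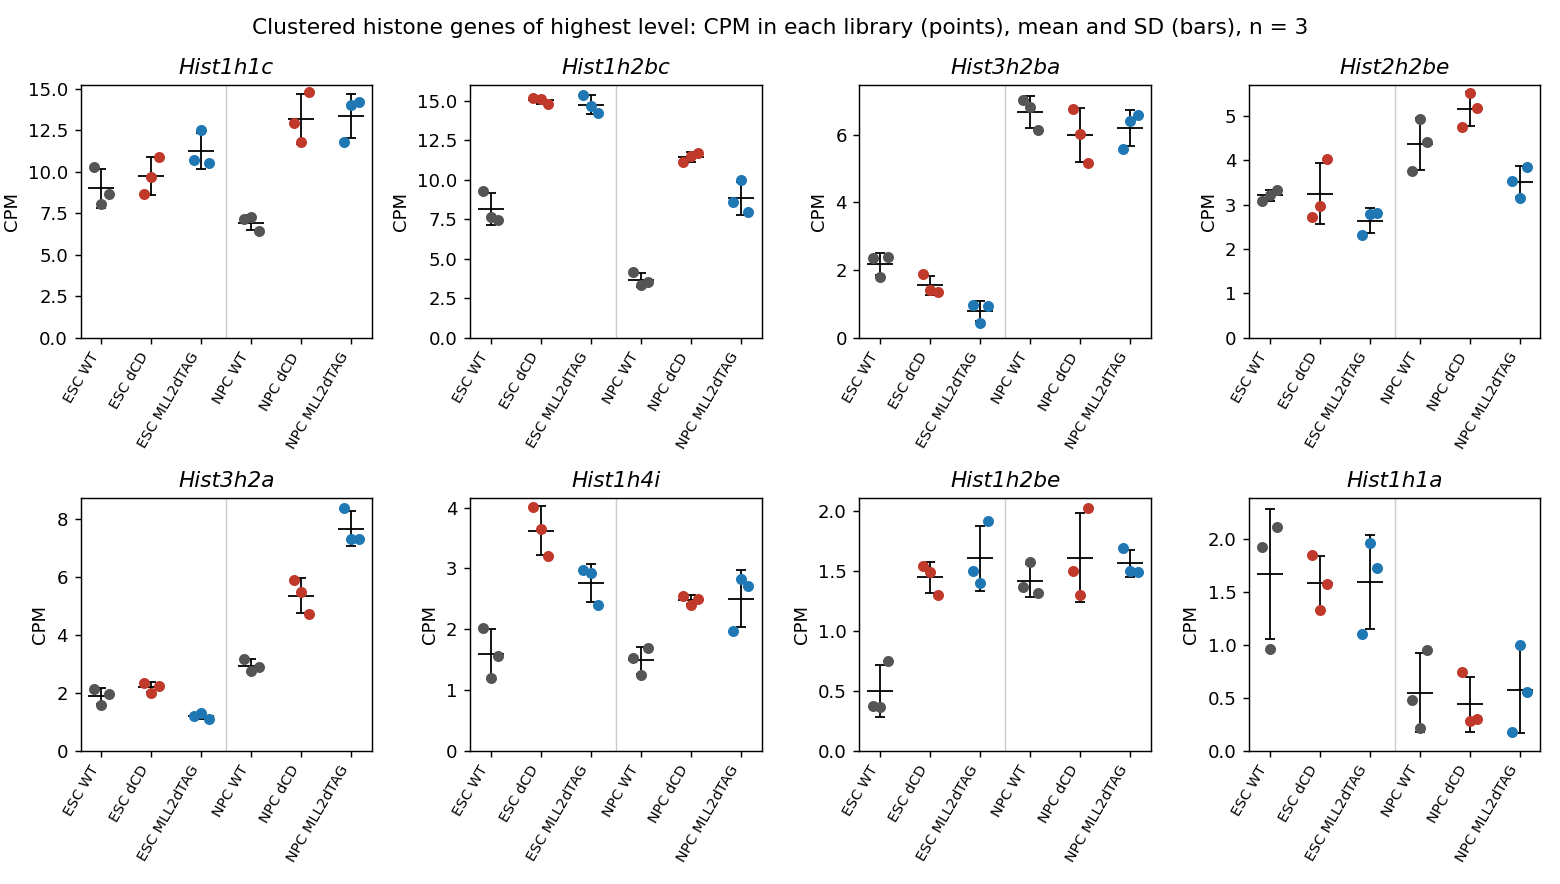
CPM of the 8 clustered genes of highest level in each library (points; grey WT, red dCD, blue MLL2dTAG), with the mean and SD of each group of 3 in black and each y axis starting at 0. Hist1h2bc and Hist1h4i lie above WT in both lines at both stages, Hist1h1c in NPC, and Hist3h2a reaches 7.33 to 8.39 CPM in MLL2dTAG NPC.

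H1f0 was higher than WT in ESC and lower in NPC in both lines. It stood at 93.5, 90.6 and 95.1 CPM in dCD ESC and 124, 127 and 125 CPM in MLL2dTAG ESC, above all WT ESC libraries. It stood at 178, 178 and 180 CPM in dCD NPC and 246, 251 and 241 CPM in MLL2dTAG NPC, below all WT NPC libraries. The log2 fold changes were 0.40 (SE 0.048) and 0.84 (SE 0.047) in ESC and −0.92 (SE 0.043) and −0.46 (SE 0.042) in NPC, with an edgeR adjusted p of at most 9e-09 in each. The difference of the stage effects was itself called, at −1.33 (SE 0.064) for dCD and −1.30 (SE 0.063) for MLL2dTAG.

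H1fx was lower in the NPC of both lines, at 17.8, 12.6 and 14.6 CPM in dCD and 16.1, 15.3 and 16.4 CPM in MLL2dTAG. Its log2 fold changes there were −0.90 (SE 0.086) and −0.81 (SE 0.084), with an edgeR adjusted p of 2.8e-11 and 1.5e-10. In ESC it was at 9.13, 8.28 and 7.64 CPM in dCD and 10.1, 10.4 and 10.1 CPM in MLL2dTAG, and the dCD difference of −0.32 (SE 0.11) was not called without WT replicate 3 or without dCD replicate 3. Exons of H1fx overlap those of Gm47286 on the same strand and Gm5577 on the opposite strand, so part of its counts is uncertain. Exons of H1f0, H2afx, H2afj and H2afy each overlap those of a gene on the opposite strand.

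H2afy2 differed from WT in opposite directions in the ESC of the 2 lines. It was at 38.5, 41.3 and 40.5 CPM in dCD ESC, above WT by 0.51 on the log2 scale (SE 0.057), and at 11.3, 11.1 and 12 CPM in MLL2dTAG ESC, where it fell by 1.30 (SE 0.066, edgeR adjusted p = 1.9e-18). In NPC both lines lay below WT, at 116, 118 and 109 CPM in dCD, where it fell by 0.35 (SE 0.044), and at 85.6, 86.5 and 84.2 CPM in MLL2dTAG, where it fell by 0.77 (SE 0.045). H2afy was at 157, 167 and 166 CPM in dCD ESC against 231, 213 and 231 CPM in WT, a fall of 0.46 (SE 0.04, edgeR adjusted p = 5.5e-12). Libraries stood at 203, 205 and 188 CPM in MLL2dTAG ESC, and in NPC at 225, 220 and 223 CPM in WT, 204, 215 and 209 CPM in dCD and 199, 209 and 198 CPM in MLL2dTAG. H2afy fell by 0.18 (SE 0.039) in MLL2dTAG ESC and by 0.14 (SE 0.038) in MLL2dTAG NPC, and differed by −0.085 (SE 0.038) in dCD NPC, which was not called.

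H2afj was lower in dCD ESC, at 18.4, 15.5 and 17.6 CPM, where it fell by 0.58 (SE 0.097), and higher in MLL2dTAG NPC, at 8.66, 9.94 and 9.03 CPM, by 0.76 (SE 0.12, edgeR adjusted p = 6e-07). In dCD NPC it was at 7.58, 5.38 and 7.42 CPM, overlapping WT, and its difference of 0.31 (SE 0.12) was no longer called when any 1 of 4 libraries was left out (WT replicate 1 or 2, dCD replicate 1 or 3).

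H2afz was higher in dCD ESC, at 221, 214 and 221 CPM against 181, 158 and 184 CPM in WT, by 0.33 on the log2 scale (SE 0.043, edgeR adjusted p = 6.2e-08), and by 0.18 (SE 0.043) in MLL2dTAG ESC, at 204, 200 and 189 CPM. Neither NPC difference was called, with libraries at 150, 138 and 145 CPM in dCD and 161, 164 and 166 CPM in MLL2dTAG against 152, 155 and 155 CPM in WT. The interaction for dCD was −0.42 (SE 0.061, edgeR adjusted p = 5.2e-07).

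H2afv stood at 117, 102 and 118 CPM in WT ESC, 97.7, 96.4 and 111 CPM in dCD ESC and 93.8, 95.6 and 90.6 CPM in MLL2dTAG ESC. In NPC it stood at 148, 152 and 157 CPM in WT, 125, 120 and 125 CPM in dCD and 130, 134 and 127 CPM in MLL2dTAG. It was called lower than WT in all 4 comparisons, most in dCD NPC, where it fell by 0.31 on the log2 scale (SE 0.046, edgeR adjusted p = 6.7e-07). The dCD ESC call, where it fell by 0.14 between groups that overlap, ended when any 1 of 4 libraries was left out (WT replicate 1 or 3, dCD replicate 1 or 2). H2afx stood at 159, 149 and 157 CPM in dCD ESC and 153, 154 and 146 CPM in MLL2dTAG ESC, and at 99.2, 88.2 and 91.1 CPM and 95, 98.2 and 95.1 CPM in the NPC of those lines. Its differences from WT were at most 0.16 in size, and each of its 3 calls ended under at least 1 alternative.

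H3f3b was at 419, 407 and 433 CPM in dCD ESC against 368, 313 and 344 CPM in WT, higher by 0.30 on the log2 scale (SE 0.04, edgeR adjusted p = 9.2e-08), and at 375, 374 and 362 CPM in MLL2dTAG ESC. In NPC it was at 548, 528 and 529 CPM in WT, 575, 531 and 544 CPM in dCD and 581, 588 and 588 CPM in MLL2dTAG. Its calls in MLL2dTAG, 0.12 in ESC and 0.13 in NPC, ended under upper-quartile scaling (edgeR adjusted p = 0.16 and 0.38). H3f3a was at 51.0, 50.7 and 46.6 CPM in MLL2dTAG ESC against 63.5, 63.1 and 68.2 CPM in WT, where it fell by 0.40 (SE 0.052, edgeR adjusted p = 4.3e-08). In NPC it was at 71.7, 70.2 and 75.4 CPM in WT, 68.1, 61 and 65.3 CPM in dCD and 73.8, 69.3 and 64.5 CPM in MLL2dTAG. In dCD NPC it fell by 0.16 (SE 0.05), a call that ended without the 2 libraries that stood apart (edgeR adjusted p = 0.058) and without dCD replicate 2 (edgeR adjusted p = 0.066).

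**Figure D4:**
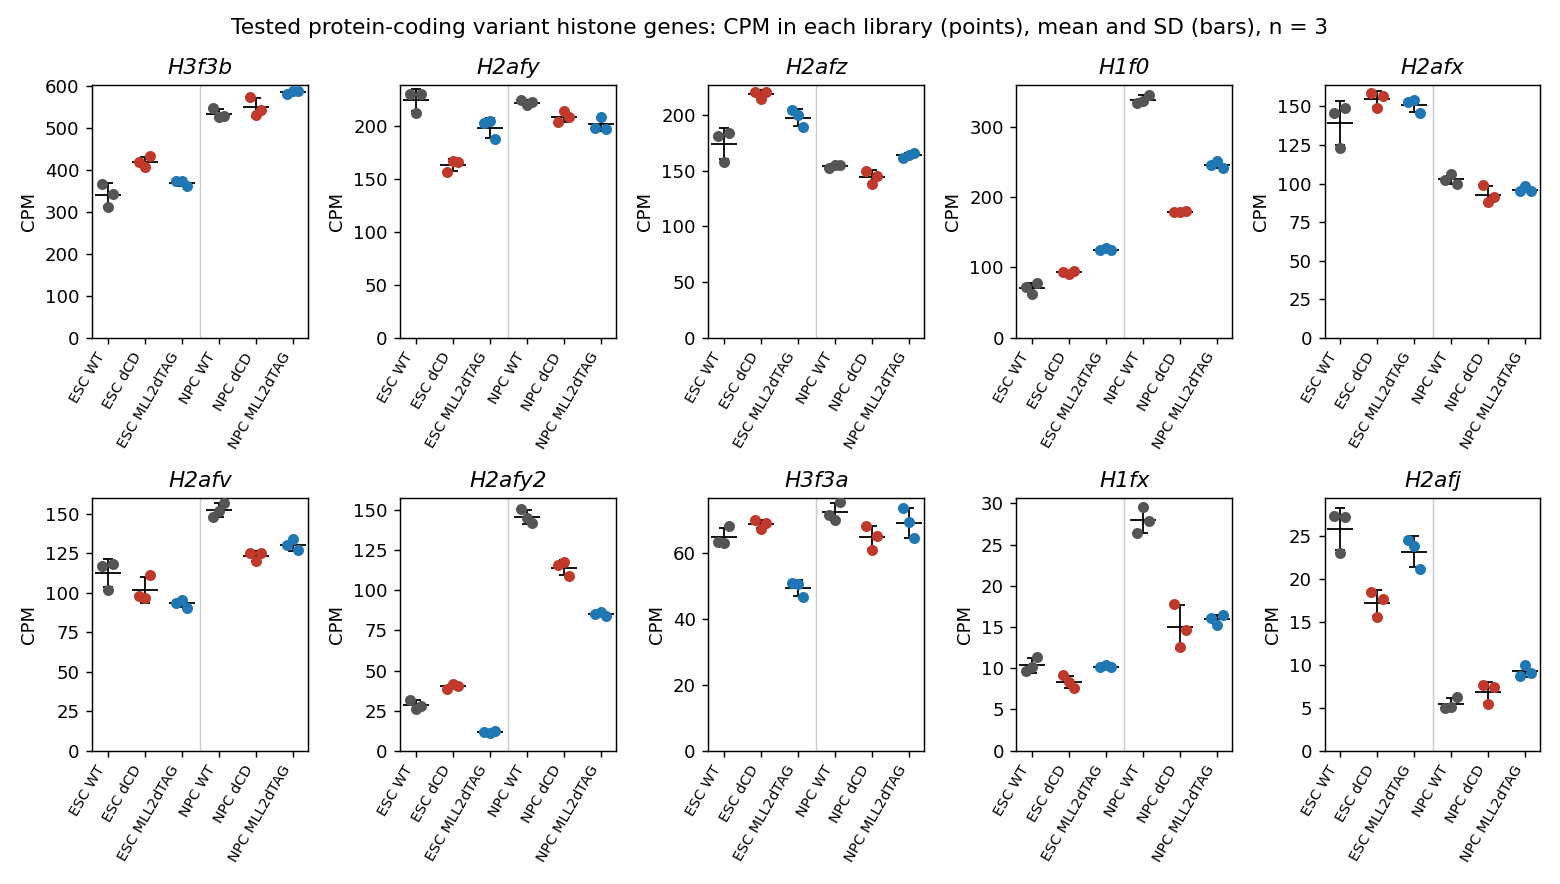
CPM of the 10 tested protein-coding variants in each library (points; grey WT, red dCD, blue MLL2dTAG), with the mean and SD of each group of 3 in black and each y axis starting at 0. H1f0 in both lines lies above WT in ESC and below it in NPC, and H2afy2 in MLL2dTAG ESC lies at 11.1 to 12 CPM, under every other group.

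Whether a line's difference from WT changed with stage was tested as an interaction, NPC minus ESC. For dCD, 42.9% of all genes were called, 20% higher and 22.9% lower. Of 28 clustered genes 4 were higher and 2 lower, and of 12 variants 2 were higher and 9 lower, so 11 of 12 variants were called and 10 of the 10 protein-coding ones. For MLL2dTAG, 49% of all genes were called, 26.4% higher and 22.6% lower. Of 28 clustered genes 4 were higher and 1 lower, and of 12 variants 3 were higher and 3 lower. Of the 11 histone genes called for MLL2dTAG, Hist3h2a had the most positive interaction, at 2.03 (SE 0.24, edgeR adjusted p = 5.8e-09), and Hist1h2be the most negative, at −1.53 (SE 0.38).

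**Figure D5:**
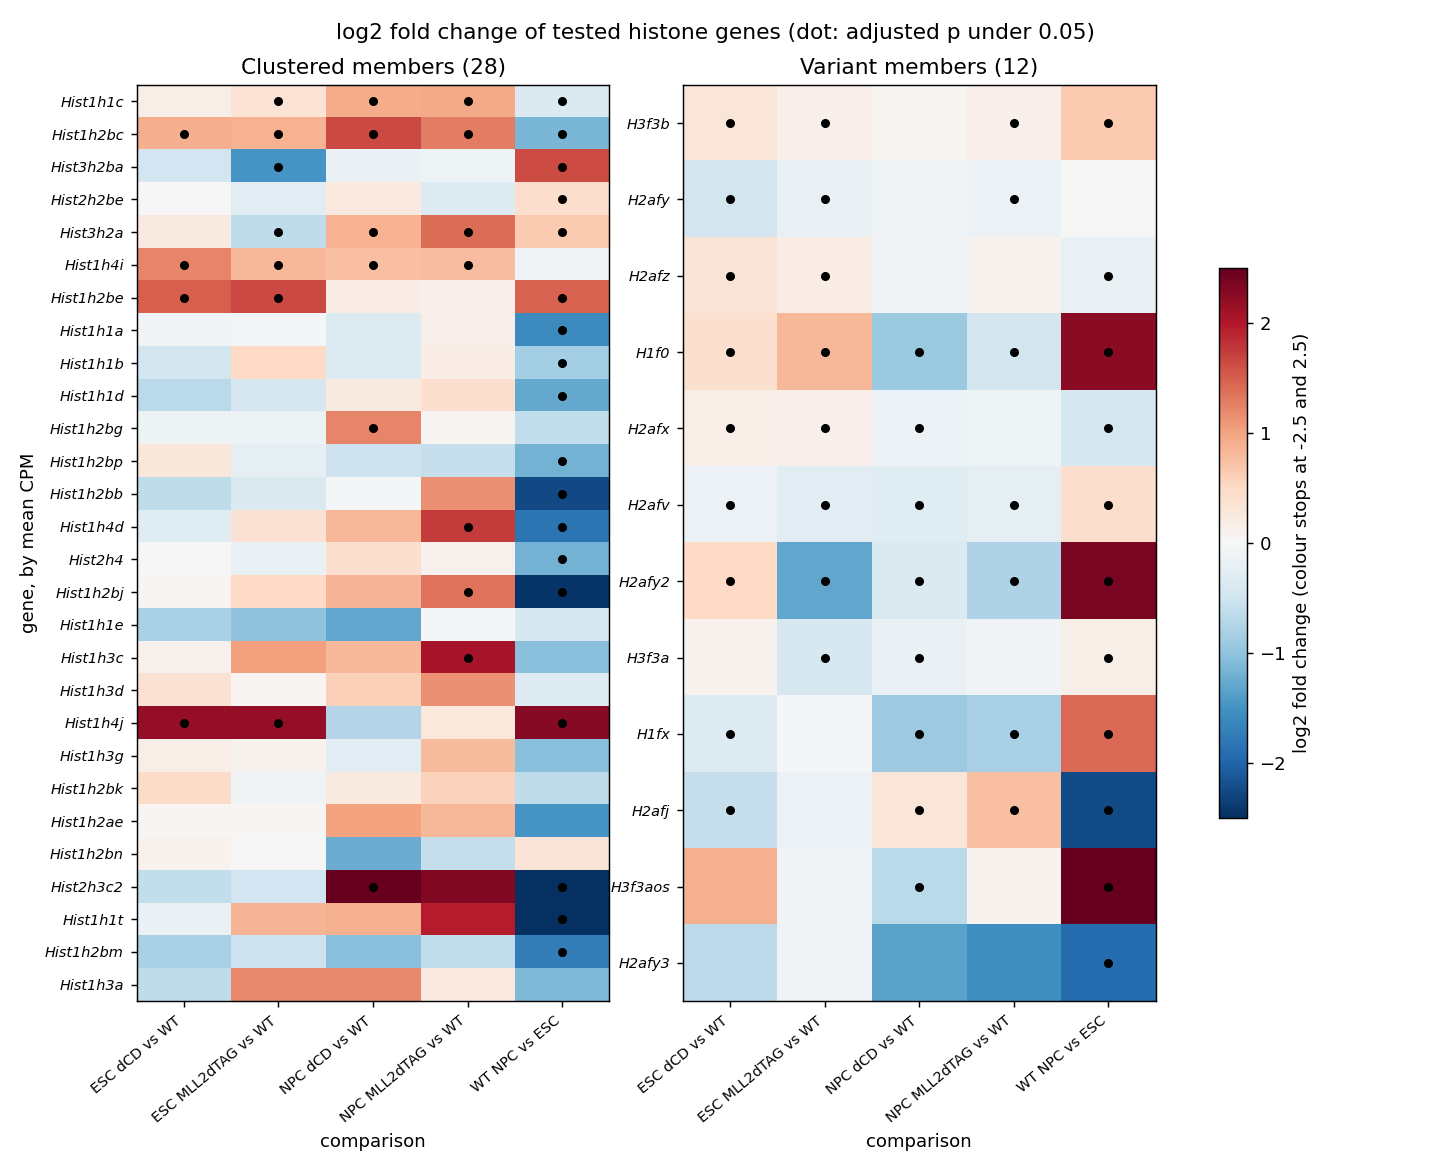
Colour gives the log2 fold change (red higher, blue lower, colour stopping at 2.5 in size) of the 28 tested clustered (left) and 12 tested variant genes (right), ordered by mean CPM, in 5 comparisons; a dot marks an adjusted p under 0.05. The lower rows on the left are mostly blue in the last column, where 10 of the 20 clustered genes of lower level were called lower in WT NPC.

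Genes that make and end histone mRNAs were read from a list of 22, all tested. Of these, 11 were higher and 7 lower in dCD ESC, 6 and 9 in MLL2dTAG ESC, 6 and 10 in dCD NPC, and 10 and 8 in MLL2dTAG NPC, where 48.3%, 56.9%, 53.5% and 61.7% of all genes were called in either direction. Slbp, which encodes the protein that binds the stem-loop, differed from WT by 0.14 (SE 0.041) in dCD ESC, −0.06 (SE 0.041) in MLL2dTAG ESC, 0.14 (SE 0.04) in dCD NPC and 0.12 (SE 0.04) in MLL2dTAG NPC. Npat, which encodes the coactivator of histone gene transcription, fell by 0.18 (SE 0.041) in dCD ESC and by 0.28 (SE 0.041) in MLL2dTAG ESC, and was not called in NPC. Ccne2, a cyclin E gene of the G1 to S transition, was higher in the NPC of both lines, by 1.03 (SE 0.059) in dCD and 0.87 (SE 0.059) in MLL2dTAG. Zfp473, which encodes a factor in the cutting of histone pre-mRNA, fell by 0.85 (SE 0.064) and 0.68 (SE 0.061) there.

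The S phase list of 31 genes did not move with the clustered genes in the same way in both lines. Its counts and those of the lists after it stand against the 53.5% of all genes called in dCD NPC and 61.7% in MLL2dTAG NPC. In dCD NPC 20 were lower and 3 higher, with a median of −0.17, while in MLL2dTAG NPC 14 were higher and 5 lower, with a median of 0.08. In both, the clustered genes that were called were all higher. Of 13 proliferation genes, 13 were lower in dCD NPC and 11 lower and 1 higher in MLL2dTAG NPC. Of 10 genes of cell cycle exit, 5 were higher and 3 lower in each. Of 32 genes of histone chaperones and exchange, 3 were higher and 15 lower in dCD NPC, and 14 higher and 6 lower in MLL2dTAG NPC. Cenpa, the histone H3 variant of centromeres, whose symbol lies outside the rule, fell by 0.56 (SE 0.036) in dCD ESC, 0.45 (SE 0.036) in MLL2dTAG ESC, 0.84 (SE 0.037) in dCD NPC and 0.60 (SE 0.037) in MLL2dTAG NPC. The part of cell cycle differences in the histone results was not tested.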

How the data were processed

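RNA-seq of 18 libraries (6 groups of 3) was analysed from a table of raw read counts per gene symbol that the authors deposited without normalization. HTSeq is named in the submitters' processing notes; aligner, genome build and strand setting are not given in the sources used here for these libraries. Per the labels' protocols, library preparation used the TruSeq Stranded mRNA kit. Columns were assigned by name, and 18 columns of per-sample values whose names match no single sample were not used. Counts were fitted with edgeR 4.0.16 in R 4.3.3: filterByExpr by group (minimum count 10), TMM scaling, 1 mean per group over all libraries, quasi-likelihood tests and Benjamini-Hochberg adjustment over 20511 genes, called at an adjusted p under 0.05. CPM are relative to TMM-scaled library sizes. The biological coefficient of variation was 4.01%. Replicate pairs differed by a chi-square of at least 2.19 per degree of freedom, so no library was a copy of another of its group. This does not tell technical from biological replicates. The fit was tested on simulated data. Annotation was GENCODE vM21 (92.1% of table symbols matched, and all 91 histone symbols) and RefSeq promoters (75 matched). Any histone gene could be named; libraries are given one by one for the 8 clustered and 8 variant genes of highest mean CPM, and the 3 most changed called genes per class and direction with a mean of at least 1 CPM are named per comparison. The members and gene lists were chosen with earlier results of these data known. Alternatives were other scalings, filters and thresholds, DESeq2 1.42.0, halved counts, a replicate block, only the groups compared, and leaving out libraries; leaving out the 2 libraries that stood apart was chosen after seeing the data. Deviations of same-numbered libraries correlated at −0.21 to 0.142, so no strong pairing by number was seen.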

Additional observations from a re-analysis of the deposited data

Results flagged for a closer look

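Of the 40 tested histone genes, 17 differed between stages in their response to dCD and 11 in their response to MLL2dTAG, against 42.9% and 49% of all genes, by the interaction term of the edgeR fit (NPC minus ESC, log2 scale, adjusted p under 0.05). For dCD the clustered values were 4.24 for Hist2h3c2, 0.79 for Hist1h1c, 0.74 for Hist1h2bc, 0.65 for Hist3h2a, −1.32 for Hist1h2be and −2.92 for Hist1h4j. Hist2h3c2 and Hist1h4j were under 1 CPM in every library. The variant values for dCD were 0.89 for H2afj and 0.38 for H2afy, and below 0 for the rest: −0.16 for H2afv, −0.24 for H3f3a, −0.26 for H3f3b, −0.31 for H2afx, −0.42 for H2afz, −0.58 for H1fx, −0.86 for H2afy2, −1.33 for H1f0 and −1.56 for the antisense RNA H3f3aos.

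For MLL2dTAG the clustered values were 2.03 for Hist3h2a, 1.36 for Hist3h2ba, 0.61 for Hist1h1c, 0.41 for Hist1h2bc and −1.53 for Hist1h2be. The variant values were 0.91 for H2afj, 0.52 for H2afy2, 0.33 for H3f3a, −0.22 for H2afx, −0.78 for H1fx and −1.30 for H1f0. Both interactions use the same WT libraries. The dCD call of H2afv and the MLL2dTAG call of Hist1h2bc ended without the 2 libraries high in RNAs without a tail, at −0.14 (edgeR adjusted p = 0.12) and 0.28 (edgeR adjusted p = 0.18), and the dCD call of Hist3h2a ended without the filter on low counts (edgeR adjusted p = 0.075).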

How the results depend on the processing

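No value reversed its direction under any alternative run: of 1906 values for 113 calls of single histone genes, 1813 stayed called in the same direction and 93 were no longer called. Asking for a call of at least 2-fold moved most counts. Clustered counts became 3 in MLL2dTAG ESC, 3 in dCD NPC and 3 in each interaction. Variant counts became 0 in dCD ESC, dCD NPC and MLL2dTAG NPC (edgeR, against 10, 10 and 8 at an unadjusted p under 0.05 with no fold limit), 1 in MLL2dTAG ESC, 6 between WT NPC and WT ESC, 2 in the dCD interaction and 1 in the MLL2dTAG interaction. The share of all genes under that unadjusted p is not given here. Of all genes, 9.51% in dCD ESC, 16.8% in MLL2dTAG ESC, 11.9% in dCD NPC and 19.6% in MLL2dTAG NPC were called at 2-fold. The shares were 43.7% between WT NPC and WT ESC, 11.1% in the dCD interaction and 17.3% in the MLL2dTAG interaction. With a mean of at least 1 CPM, 8 clustered genes were called between WT NPC and WT ESC, of 9 tested, against 87.3% of all genes. Leaving out single libraries gave 3 to 7 clustered calls in dCD ESC, against 42.6% to 45.4% of all genes. The clustered sum of dCD ESC was 51.5 CPM with upper-quartile factors, 48.3 with library totals and 50.1 with counts halved, and that of dCD NPC was 54.7 with library totals. The variant sum was 1350 CPM in dCD ESC, 1740 in WT NPC and 1490 in MLL2dTAG NPC with upper-quartile factors, and 1830 in WT NPC, 1560 in dCD NPC and 1570 in MLL2dTAG NPC with library totals. Replicate numbers gave correlations of deviations from −0.21 to 0.142, so they do not pair the libraries. With a replicate block 4 clustered genes were called in dCD ESC, 7 in MLL2dTAG ESC, 6 in dCD NPC, 7 in MLL2dTAG NPC and 17 between WT NPC and WT ESC. In that order, 47.6%, 56.1%, 52.7%, 61% and 78.8% of all genes were called. A count of 3 is worth 0.0662 to 0.16 CPM, which bounds what a count of 0 can show.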
